A study of Mus musculus with 16 samples.

Results

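The genes described here are 10 enzymes of glycolysis, including the isoenzymes that mark the red-cell lineage, and they were taken by symbol: Hk1, Gpi1, Pfkl, Pfkm, Aldoa, Tpi1, Pgk1, Bpgm, Pkm and Pklr. All 10 had a row among the 15386 genes of the RNA-seq count table and among the 13490 genes of the m6A-seq count table. All 10 also passed the filter on low counts, which left 11979 genes for the RNA-seq test and 11447 for the m6A test.

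The study asked what the m6A writer Mettl3 does in erythropoiesis in mouse bone marrow, and sorted CFU-E cells, the erythroid progenitors that form small colonies, as lineage-negative cells with Kit and CD71 on their surface. RNA-seq compared 3 libraries of control CFU-E with 3 CFU-E libraries labelled Kit-low and Mettl3 KO, called Kit-low libraries from here on. The m6A-seq set 2 libraries of RNA pulled down with an antibody to m6A (IP) against 2 libraries of input RNA, all from control CFU-E, so it says nothing about m6A in the deficient cells. The labels also list 3 control and 3 Mettl3-deficient libraries of proerythroblasts (ProE), which were not analysed here.

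The deficient mice were Mettl3 fl/fl EpoR Cre/- animals, adults of both sexes on a C57BL/6 background, in which Cre made from EpoR-tdTomato-Cre recombines in erythroid cells and also in the macrophages of erythroblastic islands. In their erythroid cells the study reported Mettl3 mRNA absent by qRT-PCR, Mettl3 protein absent by Western blot, and a lower global m6A level. The labels call the other group control and give it no genotype. The groups differed both in Mettl3 genotype and in the Kit gate, with no Kit-low control library, so the effects of these cannot be told apart. Nothing states that the libraries of a group came from separate animals, and p-values then measure only the spread between these libraries.

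The RNA-seq libraries held 17429262 to 21329242 counts each and the m6A-seq libraries 19421059 to 37142742. Mettl3 itself stood at 115, 123 and 129.8 CPM (the share of counts in a library, scaled by TMM) in control CFU-E and at 117, 127 and 108 CPM in the Kit-low libraries, so its total transcript count did not separate the groups (log2 fold change -0.07, SE 0.10, edgeR adjusted p = 0.634). The counts are per gene, and reads from exons outside the deleted segment are not told apart in them. Kit, in contrast, was at 544 to 629 CPM in control and 44.0 to 68.5 CPM in Kit-low libraries; the sort used this protein. Of 8 erythroid markers, 3 rose (Alas2, Klf1 and Epor) and 2 fell (Kit and Car1) at a fold of at least 1.5 and an edgeR adjusted p under 0.05. Over all tested genes 12.1% were higher and 9.83% lower by that rule. Klf1 and Epor, each at 1.51-fold, passed it only narrowly. The globin genes together took 63.0 to 71.3 CPM in control and 2232 to 3796 CPM in Kit-low libraries. The summed level of 9 macrophage markers was 19.6 to 22.2 CPM in control and 7.04 to 12.4 CPM in Kit-low libraries, with Adgre1 and Cd5l at no more than 10 counts in any library. The sums for 8 granulocyte markers (25.5 to 37.8 against 16.0 to 24.0 CPM), 4 megakaryocyte markers (4.45 to 8.47 against 6.94 to 16.3 CPM), 5 mast cell and basophil markers (32.9 to 41.5 against 1.92 to 5.01 CPM, with Gata2 at 31.6 to 36.4 CPM of the control sums) and 4 lymphocyte markers (0.766 to 1.49 against 0.935 to 1.83 CPM) were small beside those of the erythroid list. The erythroid sum itself was 7001 to 7381 CPM in control and 4035 to 4164 CPM in Kit-low libraries. The part of cell maturation or of other cell types in the results below was not tested.

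Glycolysis turns glucose into pyruvate and gives the mature red cell, which has no mitochondria, its ATP. Many of its steps have several isoenzymes, and the erythroid lineage is known for its own choice among them: Pklr, whose R form is the pyruvate kinase of red cells, takes over from Pkm, and Bpgm, the bisphosphoglycerate mutase, draws a side branch that makes the phosphate ester by which red cells lower the oxygen affinity of haemoglobin. Inherited defects of PKLR, HK1, GPI, TPI1, PGK1, PFKM or ALDOA are known causes of haemolytic anaemia.

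Bpgm and Pkm rose and Gpi1 fell in the Kit-low libraries, and the other 7 genes were not called at a fold of at least 1.5 with an adjusted p under 0.05 (edgeR quasi-likelihood test, Benjamini-Hochberg). Bpgm changed most, to 3.07-fold its control level. By the same rule 12.1% of all 11979 tested genes were higher and 9.83% lower, so 2 higher and 1 lower of 10 lie near the background. With no fold threshold 2 of the 10 were higher and 5 lower, against 17.6% and 16.9% of all tested genes; the 4 added are Pfkl, Aldoa, Pgk1 and Pklr. The 3 libraries of the groups did not overlap for 8 of the 10 genes, which also held for 47.5% of all tested genes. The median log2 fold change of the 10 genes was -0.26, beside 0.0080 over all tested genes.

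**Figure D1:**
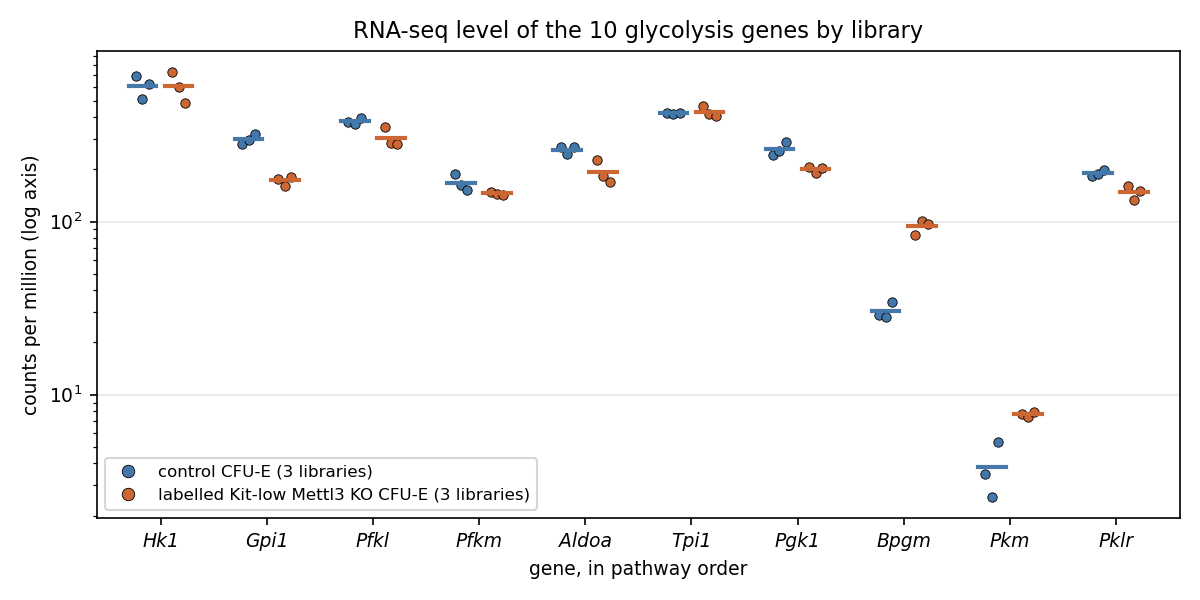
RNA-seq level of each of the 10 genes in every library, in CPM on a log axis, with genes in pathway order; points are libraries and bars are group means (n = 3). Bpgm and Pkm sit higher in all 3 Kit-low libraries and Gpi1 lower, while Hk1 and Tpi1 overlap between the groups.

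At the entry of the pathway, Hk1, the hexokinase that traps glucose in the cell as its phosphate, was at 697, 509 and 621 CPM in control CFU-E and at 731, 595 and 486 CPM in the Kit-low libraries. The groups overlapped across their whole range, and the log2 fold change was -0.01 (SE 0.15, edgeR adjusted p = 0.964). Gpi1, the isomerase that turns glucose phosphate into fructose phosphate, stood at 281, 297 and 319 CPM in control. In the Kit-low libraries it was at 177, 160.4 and 181 CPM, all below the lowest control library. Gpi1 fell by 0.79 on the log2 scale (SE 0.08, edgeR adjusted p = 8.13e-05), from 299 ± 18.7 to 173 ± 10.8 CPM (SD, n = 3 each).

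Phosphofructokinase, which commits sugar to glycolysis, is made from liver (Pfkl), muscle (Pfkm) and platelet (Pfkp) subunits, and red cells are known to mix the liver and muscle types. Pfkl was at 378, 364 and 399 CPM in control and 349.8, 284 and 280.2 CPM in Kit-low libraries, and Pfkm at 187, 162 and 152 against 148, 145 and 143 CPM. Each gene had every Kit-low library below every control library, by a narrow margin. The log2 fold change was -0.32 for Pfkl (SE 0.10, edgeR adjusted p = 0.0285), short of the fold threshold, and -0.20 for Pfkm (SE 0.09, adjusted p = 0.133).

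Aldoa, the aldolase that splits the sugar into 3-carbon pieces, was at 268, 245 and 268 CPM in control and at 228, 183 and 170.2 CPM in Kit-low libraries. Tpi1, which interconverts these pieces, was at 426, 420.4 and 424 CPM and at 465, 418 and 407 CPM. Aldoa did not overlap between the groups and Tpi1 did. The log2 fold change of Aldoa was -0.43 (SE 0.11, edgeR adjusted p = 0.0132), again under a fold of 1.5, and that of Tpi1 was 0.02 (SE 0.08, adjusted p = 0.859). Pgk1, the X-linked kinase of the first ATP-making step, was at 243, 257 and 288 CPM in control and at 206, 191 and 204 CPM in Kit-low libraries, with no overlap. Its log2 fold change was -0.39 (SE 0.09, edgeR adjusted p = 0.00607), also under the fold threshold.

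Bpgm, which competes with Pgk1 for its substrate, stood at 29.0, 28.3 and 34.4 CPM in control CFU-E and at 83.8, 101 and 96.6 CPM in the Kit-low libraries. The lowest Kit-low library was thus well above the highest control library. Bpgm rose by 1.62 on the log2 scale (SE 0.12, edgeR adjusted p = 1.07e-05), from 30.5 ± 3.32 to 93.9 ± 9.06 CPM (SD, n = 3 each), and 96.6% of all tested genes had a log2 fold change no larger than this. Bpgm moved in the same direction as the globin genes and as Alas2, the first enzyme of haem synthesis in erythroid cells. The log2 fold change of Alas2 was 5.58 (SE 0.35, edgeR adjusted p = 4.14e-06). Among the 8 erythroid markers Klf1 and Epor also rose, Kit (-3.44) and Car1 (-2.46) fell, and 3 were not called. Whether the rise of Bpgm reflects cell maturation was not tested. In bulk libraries a different make-up of the sorted cells and a different amount of RNA per cell cannot be told apart.

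Pyruvate kinase, which makes ATP in the last step, is encoded by Pklr and Pkm. Pklr was at 182, 188 and 198 CPM in control and at 161, 134 and 151 CPM in Kit-low libraries, with no overlap. Its log2 fold change was -0.35 (SE 0.09, edgeR adjusted p = 0.0136), below the fold threshold. Pkm was scarce, with 73, 45 and 93 reads in control libraries and 149, 152 and 152 reads in Kit-low libraries, or 3.50, 2.57 and 5.32 against 7.74, 7.38 and 7.93 CPM. Pkm rose by 1.02 on the log2 scale (SE 0.30, edgeR adjusted p = 0.0259), so that the scarce isoenzyme rose while the abundant one was lower. The call for Pkm was lost without control replicate 1 (log2 fold change 0.95, edgeR adjusted p = 0.088) and without control replicate 2 (0.80, adjusted p = 0.0849), and also when the test asked for a fold above 1.5 itself (adjusted p = 0.217). GENCODE lists 9 other genes whose transcripts match at least 200 bases of Pkm at 90% identity or more, the closest being the processed pseudogene Gm6560 with 98.4% over 1593 of 2432 bases. Of these 9 only Gm16459 had a row, at 0 to 7 reads, so the Pkm count is uncertain.

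The same search found no such copy for Hk1, Pfkl, Pfkm and Bpgm. Pgk1 has the pseudogenes Pgk1-rs7 and Gm5537, identical to it over 1255 and 1252 of its 1825 bases, and Gpi1 has Gm1840, at 98.7% over 1046 bases. Aldoa has 6 copies, the closest being Aldoart1 at 92.7% over 1508 of 1549 bases, and Tpi1 has 2. None of the copies of Aldoa, Tpi1 and Pgk1 had a row, and neither had Gm1840. Reads of Aldoa, Tpi1, Pgk1 and Gpi1 could thus have been split between the gene and its copies. Pklr shares 711 of its 3236 exonic bases with Hcn3 on the opposite strand, and the strand used in counting is not given in the sources used here. Hcn3 had 4 to 17 reads in the RNA-seq libraries, beside 2755 to 3803 for Pklr, and 54 to 122 reads in the m6A-seq libraries, beside 683 to 2437. Gpi1 shares 741 of its 6452 exonic bases with Gm26762 on the opposite strand. On the same strand, Pfkm shares 341 of 3340 with Gm26513 and Pkm 767 of 5001 with Gm49759. Neither Gm26762, Gm26513 nor Gm49759 had a row.

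The levels of the 10 genes were compared with each other only per transcript length, as CPM per kilobase of the longest protein-coding transcript. In control CFU-E the order was Tpi1 (264 ± 1.90 CPM per kilobase, SD, n = 3), Aldoa (168 ± 8.54), Pgk1 (144 ± 12.5), Hk1 (142 ± 22.1), Gpi1 (104 ± 6.49), Pfkl (102 ± 4.66), Pklr (65.3 ± 2.78), Pfkm (58.0 ± 6.28), Bpgm (13.8 ± 1.496) and Pkm (1.56 ± 0.576). Neighbours whose libraries overlapped were Pgk1 and Hk1, Gpi1 and Pfkl, and Pklr and Pfkm; the other 6 neighbouring pairs did not overlap. The red-cell gene Pklr was thus far above Pkm already in control CFU-E, whereas Bpgm was among the lowest of the set. In the Kit-low libraries Bpgm reached 42.3 ± 4.08 CPM per kilobase, below Pfkm (50.5 ± 0.878) and Pklr (51.1 ± 4.68) without overlap, and Pkm stayed lowest at 3.16 ± 0.114. Tpi1 stayed highest at 268 ± 19.2, followed by Hk1 at 141 ± 28.7 and Aldoa at 125 ± 19.5, which overlapped, as did Aldoa with Pgk1 (109.8 ± 4.44) and Pklr with Pfkm, and Gpi1 at 59.9 ± 3.76 stood below Pfkl at 81.6 ± 10.5. Other transcript lengths shift such levels: with the median instead of the longest transcript Tpi1 was at 352 CPM per kilobase in control and 357 in Kit-low libraries.

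Isoenzyme switches were followed as the log2 ratio of the reads of 2 genes within a library, which does not depend on the scaling of libraries. The pair of Bpgm and Pgam1 sets the side branch against the main pathway and is not a pair of isoenzymes. Of 7 pairs, 4 did not overlap between the groups: Pklr to Pkm, Hk1 to Hk2, Ldhb to Ldha and Bpgm to Pgam1. Single genes did not overlap in 47.5% of all those tested, and no such share was taken over ratios of other gene pairs. With 3 libraries against 3 the two-sided exact permutation test cannot go below 0.10. That is the p of each of the 4 pairs named (0.175 after Benjamini-Hochberg over the 7), so no pair could pass a threshold of 0.05.

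**Figure D2:**
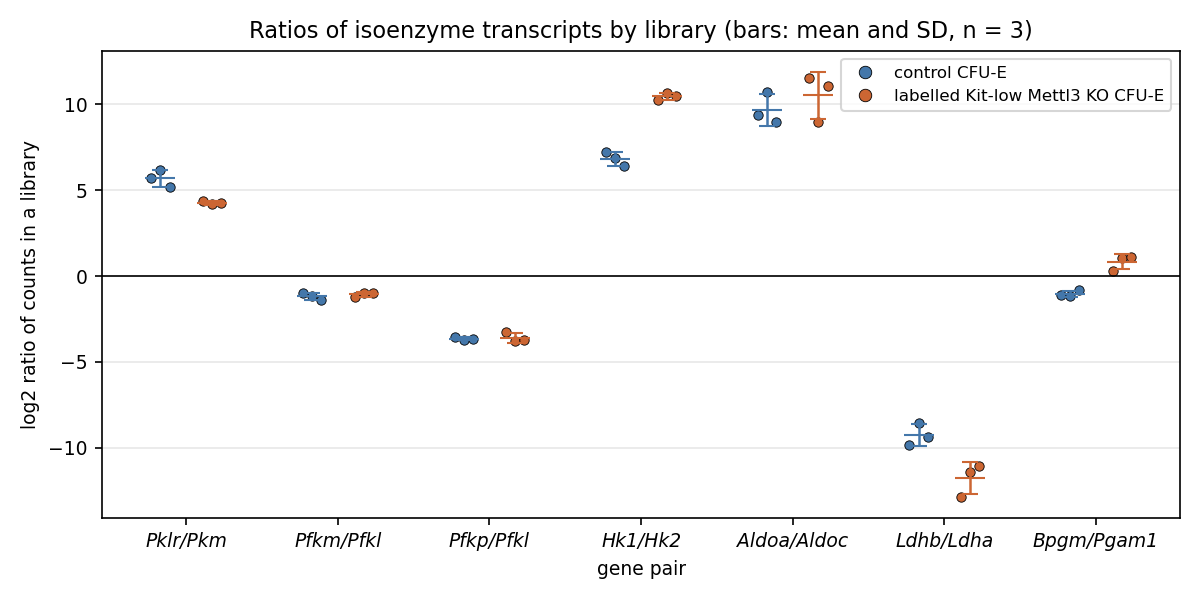
Log2 ratio of the reads of 2 genes in each library for 7 pairs; points are libraries, and bars give the mean and SD (n = 3). The ratios of Pklr to Pkm and of Ldhb to Ldha are lower in all 3 Kit-low libraries and those of Hk1 to Hk2 and Bpgm to Pgam1 are higher, while the other 3 pairs overlap.

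The log2 ratio of Pklr to Pkm was 5.69, 6.18 and 5.21 in control and 4.37, 4.18 and 4.25 in Kit-low libraries, a difference of -1.43 (SE 0.29). Per length, Pklr made up 97.8%, 98.4% and 96.9% of pyruvate kinase transcripts in control and 94.6%, 93.8% and 94.1% in Kit-low libraries. Pklr, its red-cell and liver forms counted together, therefore held most of the family in every library, with a slightly smaller share in the Kit-low libraries. The limits given for Pkm hold for this ratio too.

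The log2 ratio of Bpgm to Pgam1, the ordinary phosphoglycerate mutase of the main pathway, was -1.09, -1.15 and -0.84 in control and 0.32, 1.07 and 1.09 in Kit-low libraries. All 3 Kit-low libraries were above all 3 control libraries, with a difference of 1.86 (SE 0.27). Pgam1 itself was at 61.4 to 62.9 CPM in control and 45.2 to 67.1 CPM in Kit-low libraries and was not called (log2 fold change -0.21, edgeR adjusted p = 0.308).

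For hexokinase the log2 ratio of Hk1 to Hk2 was 7.21, 6.88 and 6.41 in control and 10.26, 10.67 and 10.49 in Kit-low libraries, a difference of 3.64 (SE 0.26). This came from Hk2, an isoenzyme common in growing cells, which had 98, 75 and 127 reads in control and 11, 7 and 6 reads in Kit-low libraries. Per length Hk1 already held 99.2% ± 0.135 of the family in control and 99.9% ± 0.0729 in Kit-low libraries (SD, n = 3 each). The log2 ratio of Ldhb to Ldha, the heart and muscle types of lactate dehydrogenase, was -9.85, -8.57 and -9.36 in control and -12.85, -11.40 and -11.08 in Kit-low libraries, a difference of -2.52 (SE 0.66) that rests on 2 to 7 reads of Ldhb per Kit-low library.

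The phosphofructokinase pairs gave no such separation. The log2 ratio of Pfkm to Pfkl was -1.01, -1.17 and -1.39 in control and -1.24, -0.97 and -0.97 in Kit-low libraries (difference 0.13, SE 0.14, exact permutation p = 0.50, adjusted 0.583). That of Pfkp to Pfkl differed by 0.04 (SE 0.17, exact permutation p = 1.0, adjusted 1.0). Per length Pfkl made 61.0% ± 2.87 of the family in control and 58.9% ± 1.78 in Kit-low libraries, Pfkm 34.6% ± 2.91 and 36.7% ± 2.82, and Pfkp 4.36% ± 0.171 and 4.40% ± 1.05 (SD, n = 3 each), so both groups mixed the liver and muscle subunits that red cells are known for. Aldoc, the brain type of aldolase, had only 1 to 9 reads, and the log2 ratio of Aldoa to Aldoc differed by 0.84 (SE 0.96, exact permutation p = 0.40, adjusted 0.56).

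**Figure D3:**
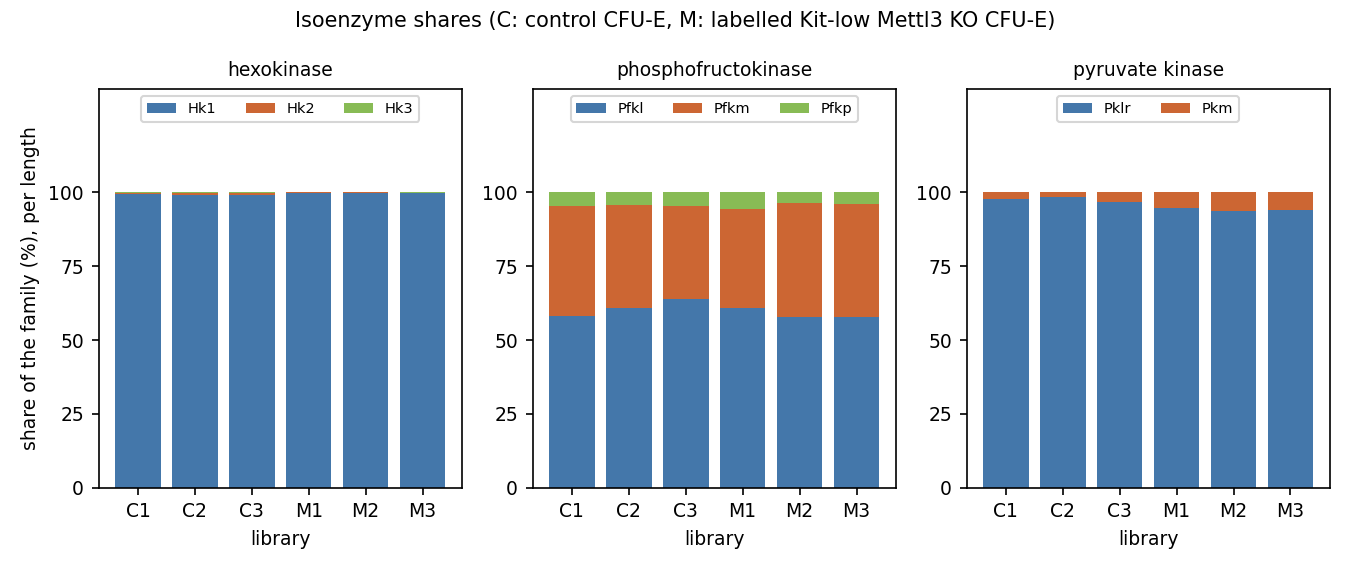
Share of each isoenzyme in its family per transcript length, in percent, for the 3 control (C) and the 3 Kit-low (M) libraries. Hk1 and Pklr hold nearly the whole of their families in every library, Pkm is slightly larger in the Kit-low libraries, and the phosphofructokinase subunits keep similar shares.

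Around these 10 genes the other lists of the pathway were counted in the same fit, in which 12.1% of all tested genes were higher and 9.83% lower. Of 11 tested other glycolytic enzymes 1 rose and 3 fell, and the median log2 fold change was -0.21. Eno3, the muscle enolase, rose by 0.73 on the log2 scale (SE 0.19, edgeR adjusted p = 0.0135), a call lost without control replicate 3 (0.61, adjusted p = 0.0671) and in the test against a fold of 1.5 (adjusted p = 0.443). Hk2 fell by 3.71 (SE 0.44), Ldhb fell by 3.31 (SE 0.61) and Ldha, which regenerates the cofactor that glycolysis needs, fell by 0.78 (SE 0.09, edgeR adjusted p = 0.000136). Ldha was at 1522, 1378 and 1670.5 CPM in control and at 959, 849.99 and 844 CPM in Kit-low libraries, the largest drop in CPM among the called genes of the glycolytic lists.

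Of 6 tested glucose and lactate carriers 4 rose, with a list median of 0.63, beside 12.1% of all tested genes called higher. The 2 not called were Slc2a3 (log2 fold change -0.21, edgeR adjusted p = 0.252) and Slc2a1 (-1.07, SE 0.53, adjusted p = 0.146). Slc2a1, a glucose carrier, had 18, 27 and 20 reads in control and 8, 14 and 11 reads in Kit-low libraries, without overlap. Slc2a4, the insulin-responsive glucose carrier GLUT4, had 4, 0 and 8 reads in control and 318, 205 and 201 reads in Kit-low libraries (log2 fold change 5.80, SE 0.59, edgeR adjusted p = 6.33e-05, a size that rests on few control reads). Slc16a3, a lactate exporter, was at 6.46, 7.21 and 8.30 CPM in control and at 46.4, 24.7 and 26.4 CPM in Kit-low libraries (2.15, SE 0.25, adjusted p = 0.000162). Both were low in every control library and higher in every Kit-low library. Bsg, the chaperone of the lactate carriers, rose by 0.61 (SE 0.09, edgeR adjusted p = 0.000749), and fell short of a fold of 1.5 without control replicate 2 (0.58), without Kit-low replicate 3 (0.52) and with upper quartile scaling (0.57), and a test against that fold did not call it (adjusted p = 0.723). Slc16a1 was at 366, 434 and 409 CPM in control and at 401, 679.9 and 831 CPM in Kit-low libraries, which overlap. Its log2 fold change was 0.66 (SE 0.21, edgeR adjusted p = 0.0334), and it was no longer called by DESeq2 (adjusted p = 0.0607) or without control replicate 1 (0.59), control replicate 2 (0.71), control replicate 3 (0.66), Kit-low replicate 2 (0.63) or Kit-low replicate 3 (0.43).

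Among 7 tested regulators of glycolytic flux 1 fell, with a list median of 0.17, beside 9.83% of all tested genes called lower. Pdk2, a kinase that holds back pyruvate dehydrogenase, was at 10.8, 13.6 and 10.5 CPM in control and at 8.62, 6.7 and 7.67 CPM in Kit-low libraries (log2 fold change -0.60, SE 0.21, edgeR adjusted p = 0.0474). That call was lost without any of the 3 control replicates (-0.66, -0.49 and -0.68) and without Kit-low replicate 2 (-0.49) or 3 (-0.59). It was also lost with DESeq2 size factors (edgeR adjusted p = 0.0509), library size only (0.0735), no filter (0.0501) and a test against a fold of 1.5 (0.807). Of 8 tested genes of the pentose phosphate pathway, which feeds on glucose phosphate, 1 fell, beside the same 9.83%, with a list median of 0.05. This was Pgls, the lactonase of its oxidative arm, at 142, 159 and 149 CPM in control and at 95.0, 71.0 and 94.6 CPM in Kit-low libraries (-0.79, SE 0.12, edgeR adjusted p = 0.000819). No regulator and no pentose phosphate gene was called higher by edgeR or by DESeq2, with 2 and 1 at an unadjusted p under 0.05. Pdk1 and Tkt, named after their values were seen, had an adjusted p under 0.05 but a fold under 1.5: Pdk1 had a log2 fold change of 0.52 (SE 0.09, edgeR adjusted p = 0.0012) and Tkt one of -0.48 (SE 0.10, adjusted p = 0.00555), both without overlap.

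**Figure D4:**
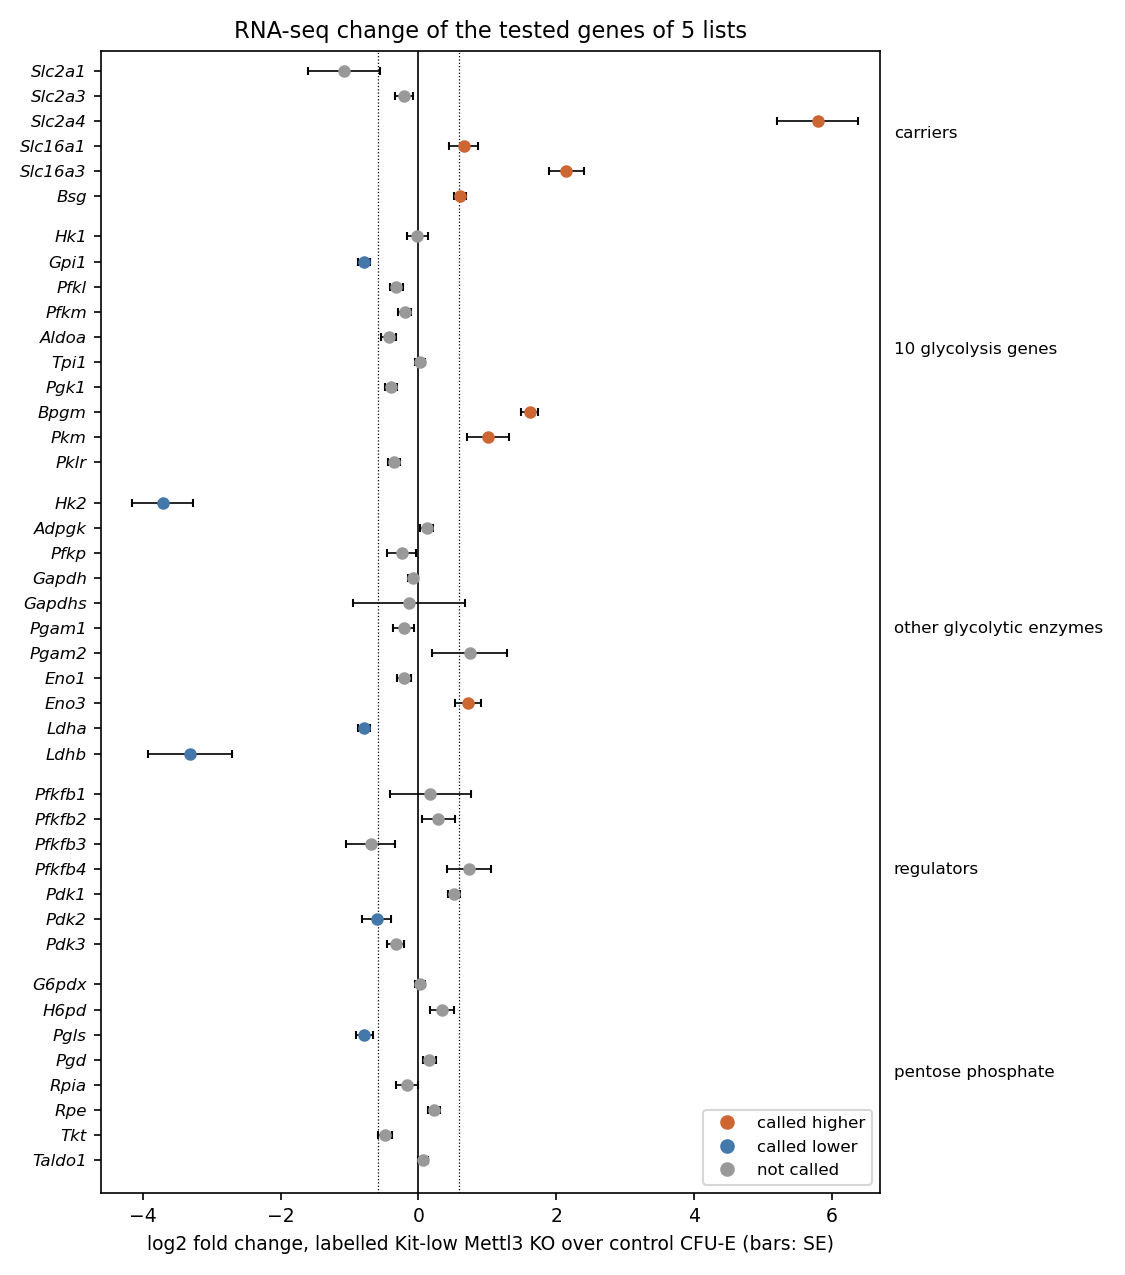
Log2 fold change of Kit-low over control libraries for the tested genes of 5 lists, with bars of 1 SE and dotted lines at a fold of 1.5. Among the 10 genes Bpgm and Pkm lie to the right and Gpi1 to the left, and 4 of the 6 carriers lie to the right of the upper line.

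The genes whose profile over the 6 RNA-seq libraries was most like that of Bpgm were Gemin4, Slc39a13 and Tbcc, with root mean square differences of 0.104, 0.105 and 0.115 in centred log2 CPM. Those most like Pklr were Sgms1 (0.0285), Cd81 (0.0325) and Snrnp200 (0.0412). The search ran over 6930 genes, and with 6 libraries in 2 groups it mainly finds genes with a similar change.

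Starts are shown for Pklr, which has a red-cell start of its own, and for Bpgm and Gpi1, whose calls held in every alternative run. RefSeq lists 18 starts for the 10 genes on GRCm38.p6, and each sequence runs 5′ to 3′ from 250 bases before the start to 50 after it. Capitals mark 3 motifs searched on both strands. AGATAA is the motif of GATA factors, which drive erythroid genes. CCNCNCCC is a loose pattern that takes in the motif of erythroid Klf factors but is not specific to them, and its matches may overlap each other. Those marked for Bpgm and Gpi1 all read GGGCGGGG. ACGTG is the core of the hypoxia response element and lies within some E-boxes too. Pklr lies on chromosome 3 at 89136142 to 89146784, plus strand, and has 2 starts, of which the upstream one is known as that of the red-cell form and the downstream one as that of the liver form. Their windows are chr3:89135892-89136191 and chr3:89136373-89136672. Bpgm lies on chromosome 6 at 34476207 to 34505613, plus strand, with the window chr6:34476106-34476405. Gpi1 lies on chromosome 7 at 34201330 to 34230336, minus strand, with the window chr7:34230287-34230586.
Pklr upstream start: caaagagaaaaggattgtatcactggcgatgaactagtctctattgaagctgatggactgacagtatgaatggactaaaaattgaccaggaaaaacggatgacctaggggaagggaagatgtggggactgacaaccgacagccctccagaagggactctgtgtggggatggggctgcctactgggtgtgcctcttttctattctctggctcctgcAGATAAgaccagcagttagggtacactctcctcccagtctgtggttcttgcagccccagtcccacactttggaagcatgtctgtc
Pklr downstream start: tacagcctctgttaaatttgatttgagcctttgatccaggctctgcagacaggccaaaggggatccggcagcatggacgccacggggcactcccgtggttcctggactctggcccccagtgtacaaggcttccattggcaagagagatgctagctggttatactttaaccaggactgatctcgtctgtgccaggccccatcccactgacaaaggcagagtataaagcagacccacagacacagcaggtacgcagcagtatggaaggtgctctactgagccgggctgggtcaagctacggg
Bpgm start: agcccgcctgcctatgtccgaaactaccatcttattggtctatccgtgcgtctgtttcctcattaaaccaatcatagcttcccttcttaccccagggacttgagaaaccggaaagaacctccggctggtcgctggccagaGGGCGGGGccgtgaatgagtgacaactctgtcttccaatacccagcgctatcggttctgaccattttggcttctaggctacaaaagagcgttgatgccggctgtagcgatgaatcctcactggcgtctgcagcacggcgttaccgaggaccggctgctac
Gpi1 start: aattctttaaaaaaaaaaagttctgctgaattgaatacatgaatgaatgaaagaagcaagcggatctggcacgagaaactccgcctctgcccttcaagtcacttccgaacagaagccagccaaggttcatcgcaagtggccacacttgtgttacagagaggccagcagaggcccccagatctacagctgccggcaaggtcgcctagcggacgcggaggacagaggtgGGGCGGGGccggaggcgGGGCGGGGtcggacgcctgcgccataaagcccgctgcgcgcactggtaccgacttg

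The upstream start of Pklr had 1 AGATAA, beginning 35 bases before the start, and the downstream start held none of the 3 motifs. Of the 10 genes only Pklr and Pfkm had an AGATAA in any window (4 of 18 windows), beside 11.2% of 32851 RefSeq windows of this length. The single start of Bpgm held 1 CCNCNCCC, on the minus strand 110 bases before the start, and that of Gpi1 held 2, at 23 and 6 bases before it. CCNCNCCC was found for 9 of the 10 genes and in 13 of 18 windows, beside 49.5% of all windows, and ACGTG for 5 genes and in 7 windows, beside 19.6%. Some windows of Pfkm and of Aldoa overlap, so the same site can be counted in more than a single window. The counts are per gene, so they cannot tell which start was used, and these letters are no evidence of binding.

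In the m6A-seq of control CFU-E none of the 10 genes was called higher in the IP, and Pkm was called lower. The call asked for an adjusted p under 0.05 by the edgeR quasi-likelihood test, which 7.9% of the 11447 tested genes passed on the IP side and 7.86% on the input side (904 and 900 genes; 934 and 608 with library size only, 1451 and 754 with upper quartile scaling). The 0 higher and 1 lower of the 10 thus lie near the background. DESeq2 also called 0 of the 10 higher, and 0 had an unadjusted p under 0.05 with a higher IP. The fractions did not overlap for 7 of the 10 genes, of which 6 were lower in the IP, against 60.9% of all tested genes without overlap. The median log2 ratio of IP to input was -0.34 for the 10 genes and 0.06 for all tested genes; other scalings moved the median of all genes to 0.21 (library size only) and 0.18 (upper quartile), so values near 0 are relative to the scaling. These libraries were primed at the 3′ end, so they measure a transcript mainly near its poly(A) tail and their levels were not compared between genes.

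**Figure D5:**
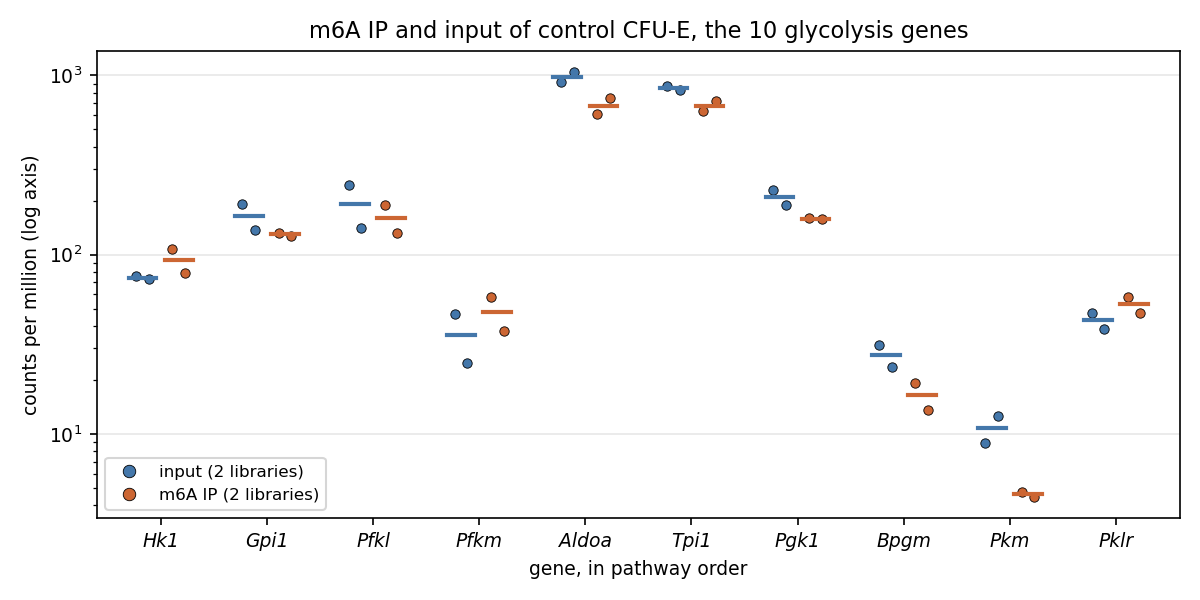
Level of each of the 10 genes in the 2 input and 2 m6A IP libraries of control CFU-E, in CPM on a log axis; points are libraries and bars are means (n = 2). Pkm is lower in both IP libraries than in both inputs, and Hk1 is higher in both.

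Pkm had 203 and 224 reads in the input (8.95 and 12.6 CPM) and 197 and 89 reads in the IP (4.72 and 4.47 CPM). Both IP libraries were below both inputs, and its log2 ratio of IP to input was -1.22 (SE 0.31, edgeR adjusted p = 0.0236). The call did not hold without input replicate 2 (-0.97, adjusted p = 0.164) or with scaling by library size only (-1.05, adjusted p = 0.0698). Bpgm was at 31.4 and 23.8 CPM in the input and 19.2 and 13.7 CPM in the IP, also with no overlap. Its log2 ratio was -0.74 (SE 0.28, edgeR adjusted p = 0.0948), and DESeq2 called it lower (-0.79, adjusted p = 0.0433).

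Aldoa was at 919 and 1045 CPM in the input and 608 and 744 CPM in the IP (log2 ratio -0.54, SE 0.23, edgeR adjusted p = 0.136), and Tpi1 at 872 and 832 against 629.9 and 722 CPM (-0.33, SE 0.22, adjusted p = 0.324). Pgk1 was at 231 and 188 CPM in the input and 160.01 and 157 CPM in the IP (-0.40, SE 0.21, edgeR adjusted p = 0.227), and Gpi1 at 191 and 138 against 132 and 127 CPM (-0.34, SE 0.23, adjusted p = 0.34). These 4 were lower in both IP libraries without passing the test.

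Hk1 was the only one of the 10 with both IP libraries above both inputs, at 107 and 79.5 CPM against 76.2 and 72.8 CPM (log2 ratio 0.32, SE 0.23, edgeR adjusted p = 0.362). Pklr (47.6 and 38.4 CPM in the input, 58.4 and 47.5 CPM in the IP), Pfkm (46.7 and 24.9 against 57.8 and 37.6 CPM) and Pfkl (245 and 141 against 189 and 131 CPM) overlapped between the fractions. Their log2 ratios were 0.30 (SE 0.24), 0.41 (SE 0.33) and -0.27 (SE 0.29), with edgeR adjusted p of 0.417, 0.413 and 0.571. Thus neither Hk1 nor Pklr was called in either direction.

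GGACT, the best known sequence context of m6A, occurred 11 times in the longest transcript of Hk1, 7 times in Pkm, 5 in Pklr, 4 each in Gpi1 and Pgk1, 3 each in Pfkl, Pfkm and Tpi1, 2 in Bpgm and 0 in Aldoa. Per kilobase this was 2.88 in Pkm, the highest of the 10, 2.57 in Hk1 and 0.901 in Bpgm, beside a median of 1.03 over 13449 protein-coding genes of the m6A table. Pkm was thus rich in GGACT and lower in the IP, whereas Hk1 was rich in it and not called. A GGACT is a description of the sequence and does not show that the site is methylated.

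In the other lists, 1 of 6 tested carriers and 2 of 8 pentose phosphate genes were higher in the IP, and 1 pentose phosphate gene was lower. Over all tested genes 7.9% were called higher and 7.86% lower. These 4 genes were named after their values were seen. Slc16a1 was at 11.1 and 13.0 CPM in the input and 48.7 and 24.3 CPM in the IP (log2 ratio 1.61, SE 0.34, edgeR adjusted p = 0.0106), Rpia at 6.7 and 7.25 against 13.6 and 15.6 CPM (1.07, SE 0.27, adjusted p = 0.0262) and Rpe at 19.5 and 18.0 against 46.0 and 28.2 CPM (0.99, SE 0.28, adjusted p = 0.0408). Pgls was lower, at 354 and 309.9 CPM in the input and 157 and 222 CPM in the IP (-0.81, SE 0.24, edgeR adjusted p = 0.0435), a call lost with library size only (-0.67, adjusted p = 0.0513) and upper quartile scaling (-0.67, adjusted p = 0.091). With 2 libraries in each fraction these calls leaned on single libraries. Without input replicate 1 none of the 4 was called (log2 ratios 1.47, 0.99, 1.02 and -0.73 in the order above), without input replicate 2 Rpia (1.12), Rpe (0.93) and Pgls (-0.91) were not, and without IP replicate 1 Slc16a1 (0.9965), Rpe (0.57) and Pgls (-0.60) were not. Of 12 tested other glycolytic enzymes and 8 regulators edgeR called 0 in either direction. At an unadjusted p under 0.05, 4 of the enzymes were lower and 1 of the regulators higher, and DESeq2 called 2 of the enzymes lower.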

How the data were processed

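RNA-seq libraries (control CFU-E, 3; Kit-low Mettl3 KO, 3) and m6A IP (2) and input (2) libraries were grouped by their labels; 10 of 16 samples had columns. The authors trimmed reads with fastp 0.23.4, quantified transcripts with kallisto 0.48.0 and deposited whole-number counts per gene; their processing notes name both mm10 and GRCm39, while their methods name mm10. Whether molecular identifiers were used in the m6A counts is not given in the sources used here. Counts were tested in R 4.3.3 with edgeR 4.0.16 (TMM, filterByExpr, glmQLFTest, Benjamini-Hochberg) over all genes that passed the filter, one fit per experiment, with DESeq2 1.42.0 as an alternative. The SE was the absolute log2 fold change divided by the square root of F. RNA-seq calls needed a fold of at least 1.5 and an adjusted p under 0.05, and m6A calls an adjusted p under 0.05. Ratios of gene pairs used counts plus 0.5 and exact permutation tests. Transcript lengths, overlaps and GGACT counts came from GENCODE M21 on GRCm38 and promoters from RefSeq. All 10 genes are named, and from the other lists the genes called in the RNA-seq or paired in the ratios. Also named are the 3 profiles most like Pklr and Bpgm among genes whose average log2 CPM was 4 or more. Rpia, Rpe, Pdk1, Tkt, Slc2a1 and Slc2a3, and the m6A values of Slc16a1 and Pgls, were chosen after their values were seen. The genes, lists and tests were chosen with earlier results of these data known. The tests were checked on simulated counts. Alternatives were other scalings, DESeq2, no filter, other thresholds, a replicate block and leaving out each library.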

Additional observations from a re-analysis of the deposited data

How the results depend on the processing

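The RNA-seq count of the 10 genes called higher stayed at 2, except for 1 with a test against a fold of 1.5; leaving out a library gave 1 to 2 higher, and lower stayed at 1 but for 5 with no fold threshold. In the m6A-seq 0 were called higher throughout, and the 1 lower became 2 by DESeq2, 0 with library size only and 3 with the replicate block (Aldoa, Bpgm and Pkm), and 0 to 1 when a library was left out, where the lone library is taken to vary like the others. Same-numbered libraries deviated together with r of -0.07 to 0.03 (RNA-seq) and of 0.21 (m6A-seq), and nothing ties a number to shared RNA, so the replicate block stands only here; in the RNA-seq it left 2 higher and 1 lower, and Pdk2 lost its call (adjusted p = 0.091). The test against a fold of 1.5 also ended the calls of Ldha (0.0626), Pgls (0.143) and Slc16a1 (0.656). Values near 0 changed sign: Hk1 in the RNA-seq to 0.04614 with library size only and -0.1758 to 0.1401 without a library, Tpi1 to -0.01595 with upper quartile and -0.04198 to 0.07557 without a library, and Pfkl in the m6A-seq -0.6166 to 0.163 without a library. The ratio of Pfkp to Pfkl differed by -0.12 to 0.14 without a library. No other difference in a ratio changed direction with a pseudocount of 5, the block or a library left out. With a library left out the smallest p of the exact permutation test is 0.2. The cause of these changes was not tested. Over all genes, higher and lower calls went from 1453 and 1178 to 2104 and 2024 with no fold threshold and to 665 and 482 with the test against a fold of 1.5; in the m6A-seq they went from 904 and 900 to 1783 and 1755 with the block, 934 and 608 with library size only, 1451 and 754 with upper quartile, and 164 to 1358 and 427 to 968 without a library. The median transcript length, chosen after seeing the data, moved 4 of 20 levels by more than 1 SD. Among the pathway genes named, depth limits Pkm, Hk2, Ldhb, Aldoc, Slc2a1 and Slc2a4 most.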
